A study of Homo sapiens with 15 samples.

Results

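A set of 38 genes of the unfolded protein response and the integrated stress response was followed across the 5 groups of an RNA-seq study of A549 cells. The members were chosen by name, by what the genes are known to do, out of 26475 genes in the count table. Earlier results of these data were known when they, and the other lists used below, were chosen. They form a chaperone arm of 21 genes, the endoplasmic reticulum (ER) chaperones and the targets and sensors around XBP1 and ATF6, and an ATF4 arm of 17 genes. All 38 had enough counts to be tested, as did 12795 genes in all. A549 is an epithelial line grown from a human lung adenocarcinoma. One group was untreated, and the other 4 were given interleukin-4 (IL4), a type 2 cytokine, at 10 ng/ml for 48 h. Of those 4, one had IL4 alone, one also had a substance called only Compound A, one a non-targeting control siRNA, and one a pooled siRNA against ALOX15 at 1 uM. ALOX15 encodes arachidonate 15-lipoxygenase, an enzyme that oxygenates polyunsaturated fatty acids. The sources used here give no identity, dose or vehicle for Compound A and no dose for the control siRNA. Compound A and both siRNAs were tested only in the presence of IL4. Each group had 3 libraries, and the labels do not state whether these are separate cultures. The p-values therefore speak of the spread among these libraries alone, and that spread may be technical.

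The ER folds secreted and membrane proteins, and the unfolded protein response matches its folding capacity to the load. Under load, the sensor IRE1, encoded by ERN1, splices the mRNA of XBP1, and the sensor ATF6 is cleaved in the Golgi; both yield transcription factors that switch on chaperones and the machinery that takes misfolded proteins back to the cytosol for degradation. The third sensor, PERK, phosphorylates the initiation factor eIF2-alpha, as do kinases that respond to amino acid shortage, heme shortage and double-stranded RNA. That step lowers general protein synthesis and favours translation of ATF4, which switches on genes for amino acid synthesis and transport and for feedback; because it acts on translation, the level of ATF4 mRNA does not report it. Splicing of XBP1 is likewise not resolved by counts per gene. In lung epithelium these pathways are known for their part in secretion of mucus and surfactant.

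The 2 arms differed upstream in the letters of ER stress elements. Promoters of GRCh38.p14 from RefSeq were matched for 36 members, 20 of the chaperone arm and 16 of the ATF4 arm. The 250 bases before each annotated start were searched on both strands. A gene counted as holding a motif if any of its annotated starts had it. The ER stress response element (ERSE), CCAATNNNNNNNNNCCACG, is bound by ATF6 with the factor NF-Y, and ERSE-II, ATTGGNCCACG, is a shorter relative. One or the other occurred in 10 of the 20 chaperone-arm genes (50%), in 0 of the 16 ATF4-arm genes in 0.301% of the 9630 tested genes with a promoter and in 0.157% of 27305 genes in the promoter table. The ERSE was found in HSPA5, HSP90B1 (at 2 places), PDIA6, CALR, CANX, CRELD2 and XBP1, and ERSE-II in SDF2L1, HYOU1 (at 2 places) and HERPUD1. The C/EBP-ATF response element (CARE), searched as TTGCATCA and TTTCATCA, occurred in CHAC1, CEBPG and ASNS, 3 of the 16 ATF4-arm genes (18.8%), in HERPUD1 alone among the 20 chaperone-arm genes (5%), in 1.2% of tested genes and in 2.11% of all genes. The core of the XBP1 element, TGACGTG, was found in HYOU1 alone of the members, where it overlapped ERSE-II, in 2.89% of tested genes and in 2.05% of all genes. The CARE matches of CEBPG and ASNS were each at 1 of 2 annotated starts. The bases that follow that start of CEBPG were not found in annotated transcripts of the gene. All of these are matches of letters and no measure of binding, and many of the members are textbook targets from which such motifs were first described. The promoters below belong to the members that passed the test in IL4 or Compound A with the largest changes and that hold the motif of their arm. They run 5′ to 3′ on the strand of the gene, end at the base before the annotated start, and have the motif in capitals, leaving the 9 free bases of an ERSE in lower case.

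CRELD2, chr22:49918384-49918633, plus strand, ERSE from 80 to 62 bases before the start:
CRELD2: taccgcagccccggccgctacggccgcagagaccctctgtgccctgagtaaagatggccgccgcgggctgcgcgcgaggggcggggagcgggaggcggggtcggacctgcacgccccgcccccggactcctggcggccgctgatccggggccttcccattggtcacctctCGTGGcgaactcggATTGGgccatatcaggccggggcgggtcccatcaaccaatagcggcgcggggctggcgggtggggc

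HERPUD1, chr16:56931892-56932141, plus strand, CARE from 176 to 169 bases and ERSE-II from 117 to 107 bases before the start:
HERPUD1: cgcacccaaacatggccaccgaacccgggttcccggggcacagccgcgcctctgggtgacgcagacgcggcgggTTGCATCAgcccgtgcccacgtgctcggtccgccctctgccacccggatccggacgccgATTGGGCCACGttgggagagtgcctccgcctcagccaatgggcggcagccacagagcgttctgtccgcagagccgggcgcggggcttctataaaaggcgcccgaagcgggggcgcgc

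CALR, chr19:12938359-12938608, plus strand, ERSE from 225 to 207 bases before the start:
CALR: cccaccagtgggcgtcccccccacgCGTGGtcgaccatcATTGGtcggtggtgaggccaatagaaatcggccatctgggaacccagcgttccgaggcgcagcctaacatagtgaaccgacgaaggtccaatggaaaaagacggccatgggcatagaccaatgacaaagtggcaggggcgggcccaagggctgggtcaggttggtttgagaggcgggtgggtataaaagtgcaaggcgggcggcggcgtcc

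HSPA5, chr9:125241344-125241593, minus strand, ERSE from 66 to 48 bases before the start:
HSPA5: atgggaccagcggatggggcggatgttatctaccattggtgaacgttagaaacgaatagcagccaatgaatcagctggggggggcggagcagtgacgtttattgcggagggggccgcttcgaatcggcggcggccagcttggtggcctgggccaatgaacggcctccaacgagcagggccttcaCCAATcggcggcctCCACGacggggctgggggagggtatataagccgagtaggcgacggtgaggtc

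CHAC1, chr15:40953221-40953470, plus strand, CARE from 209 to 202 bases before the start:
CHAC1: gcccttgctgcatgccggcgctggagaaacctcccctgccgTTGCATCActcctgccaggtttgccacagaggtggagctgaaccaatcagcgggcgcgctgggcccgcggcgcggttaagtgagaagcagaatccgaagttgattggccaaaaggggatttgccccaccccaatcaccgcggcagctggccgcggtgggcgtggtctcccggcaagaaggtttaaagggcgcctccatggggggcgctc

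**Figure D1:**
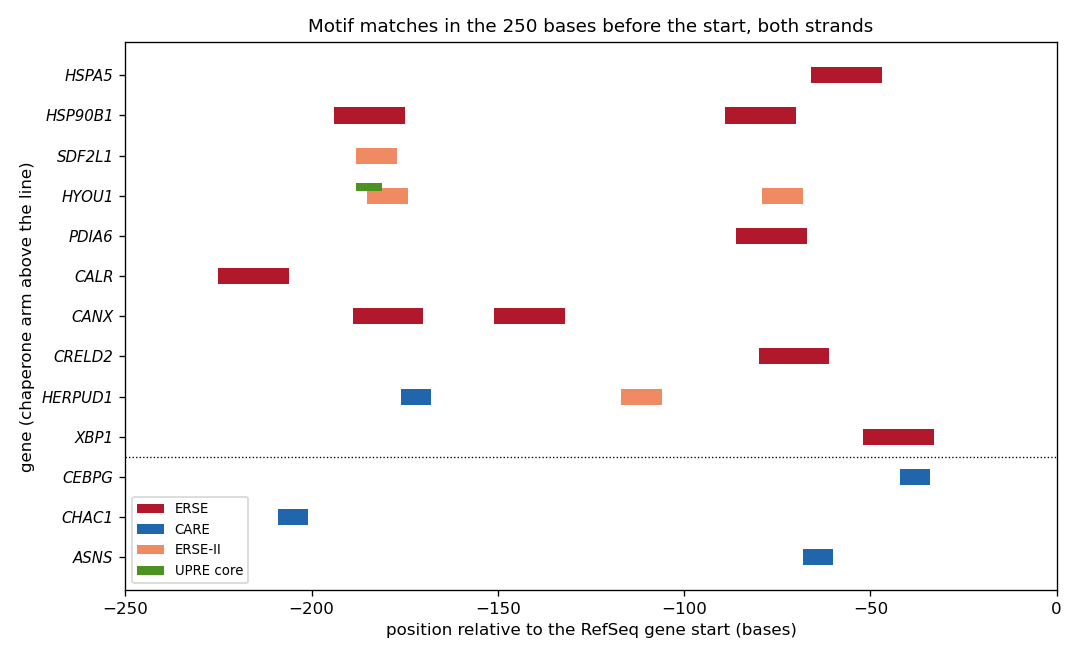
Motif matches in the 250 bases before the RefSeq start (horizontal axis, bases relative to the start) for the 13 members that hold one, chaperone arm above the dotted line. The 2 bars of CANX are a single ERSE seen from 2 annotated starts, and the ATF4-arm genes CEBPG, CHAC1 and ASNS show CARE matches and no ERSE.

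The libraries held between 6407936 and 11031246 estimated counts. Levels are given as CPM, a count divided by the size of its library after scaling for composition. The targeted gene, ALOX15, was at 3.91, 3.56 and 3.25 CPM with control siRNA and at 0.136, 0.314 and 0.319 CPM with ALOX15 siRNA, which is -3.85 on the log2 scale (SE 0.43, adjusted p = 8.5e-05). IL4 replicate 1 stood apart from its group, with a chi-square per degree of freedom of 10 and 13.5 against its mates where those 2 differed by 2.43. In that library the genes in the third with the lowest GC content were low against the third with the highest, by -0.54 on the log2 scale of deviations, while the other 14 libraries lay between -0.16 and 0.16. Median transcript GC content was 47.9% in the chaperone arm, 55.4% in the ATF4 arm and 49% over all tested genes, so this library is given its own value wherever it bears on a result. All 6 epithelial markers examined were expressed. Of 8 alveolar type II markers, 2 had enough counts to be tested. The surfactant gene SFTPB was listed at 0 in all 15 libraries, and SFTPA1, SFTPA2 and SFTPC did not exceed 0.272 CPM. The labels call the line alveolar type II-like. Summed over the 8 markers, levels were 39.2 to 39.9 CPM in untreated libraries and 58.5 to 75.3 CPM with IL4. The 2 that were tested had log2 changes of 0.66 and 0.71 with IL4. In bulk RNA, fewer cells of a type and less RNA per cell cannot be told apart.

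The members spanned a wide range of levels. On the scale of CPM per kilobase of the principal transcript, averaged over the 15 libraries, HSPA5, which encodes the central ER chaperone BiP, was highest at 1430, followed by HSP90B1 (GRP94) at 1170 and the lectin chaperones CALR at 626 and CANX at 587. The highest of the ATF4 arm were the light and heavy chains of the large neutral amino acid transporter, SLC7A5 at 509 and SLC3A2 at 507, which did not differ beyond their spread over libraries. At the low end stood the sensor ERN1 at 7.21, the leucine sensor SESN2 at 15.4, the glutathione-degrading enzyme CHAC1 at 15.8 and the sensor ATF6 at 19.9. Summed over the 21 genes, the chaperone arm took 15700 to 19500 CPM in the untreated libraries, 17700 to 22400 with IL4, 20000 to 23100 with Compound A, 21700 to 21800 with control siRNA and 20700 to 21100 with ALOX15 siRNA. The low end of the first of these ranges is untreated replicate 1, in which HSPA5, HSP90B1 and CANX were each the lowest of the group. The sum over the ATF4 arm stayed between 7480 and 8140 CPM in all 15 libraries.

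**Figure D2:**
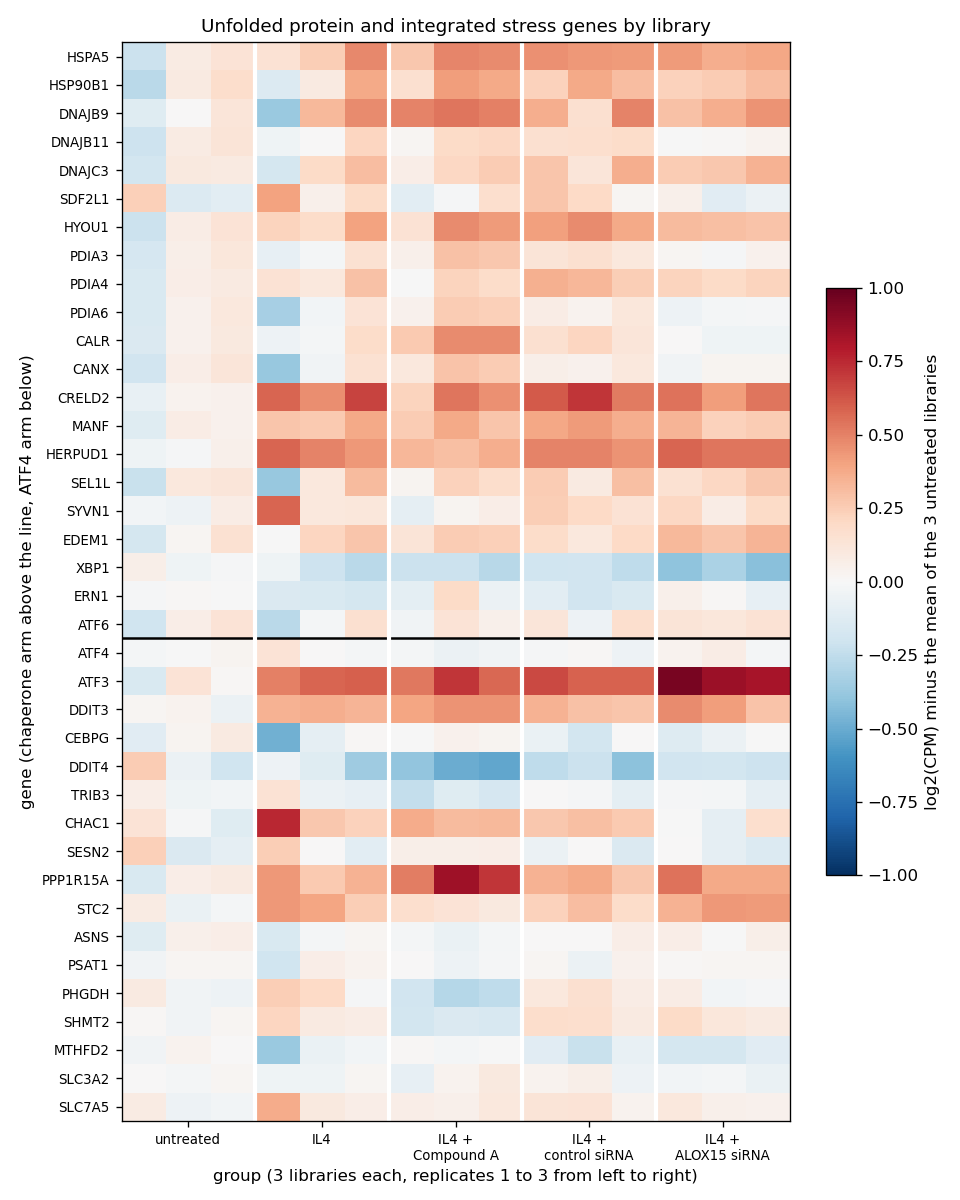
Each cell is 1 gene in 1 library, coloured by log2(CPM) minus the mean of the 3 untreated libraries, with the 21 chaperone-arm genes above the line and the 17 ATF4-arm genes below it. CRELD2, HERPUD1, ATF3 and DDIT3 are red in all 12 IL4-treated libraries, and IL4 replicate 1 differs from its mates at DNAJB9, PDIA6, SEL1L, SYVN1, CEBPG and CHAC1.

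With IL4, several ER chaperone and degradation genes of the chaperone arm were modestly higher, and no sensor was. Of 21 members, 6 were higher and 1 was lower by edgeR's quasi-likelihood test with Benjamini-Hochberg adjustment over all tested genes, where 11.2% of all genes were higher and 11.6% lower. Those higher were HSPA5, HYOU1, CRELD2, MANF, HERPUD1 and SYVN1, and the one lower was XBP1. The median log2 change over the 21 was 0.12, against -0.022 over all genes. That median moved with single libraries, to 0.02 without IL4 replicate 3, 0.05 without untreated replicate 1, 0.18 and 0.19 without untreated replicates 2 and 3, and 0.20 without IL4 replicate 1. With RLE or upper-quartile scaling the split was 7 higher and 0 lower, and with GC offsets it was 6 and 2. Over all genes, 11.9% were higher and 10.5% lower with RLE, and 12.2% and 9.78% with upper-quartile scaling. With GC offsets 12.1% of all genes were higher and 15.9% lower. The sum over 6 epithelial markers was 6340 to 7170 CPM in untreated cells and 9790 to 12100 CPM with IL4. The sum over 14 markers of other cell types was 112 to 123 CPM and 144 to 184 CPM. Of the 6 epithelial markers, 3 passed as higher and 1 as lower. Of the 14 others, 5 had enough counts to be tested and 3 passed as higher. Log2 changes over those 5 ran from 0.05 to 1.44. In the latter list PTPRC and CD3E were at 0 in every library, and the part of either list in the result was not tested.

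CRELD2, a secreted disulfide isomerase-like protein of the ER, had the largest rise of the arm. It lies on the plus strand of chromosome 22 at 49918167 to 49927540 (GRCh38). Its level was 96.2, 103 and 104 CPM in untreated replicates 1 to 3 and 152, 140 and 162 CPM with IL4. The groups did not overlap, and the log2 change was 0.58 (SE 0.08, adjusted p = 1.7e-05). HERPUD1, a membrane scaffold of the ER degradation complex (chromosome 16, 56932048 to 56944863), was at 570, 583 and 609 CPM without IL4 and at 878, 828 and 791 CPM with it. Its groups were likewise apart, and its log2 change was 0.50 (SE 0.05, adjusted p = 1.1e-07). MANF, a secreted protein that holds to BiP (chromosome 3, 51385047 to 51389397), rose from 165, 190 and 186 CPM to 218, 216 and 234 CPM, a log2 change of 0.30 (SE 0.06, adjusted p = 0.001). These 3 passed under each of the 16 alternative settings tried.

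The other calls of the arm were weaker. HSPA5 (chromosome 9, 125234853 to 125241330) was at 3860, 4730 and 4910 CPM in untreated cells and at 4950, 5300 and 6240 CPM with IL4, with a log2 change of 0.29 (SE 0.09, adjusted p = 0.025). The groups were apart by little, since untreated replicate 3 and IL4 replicate 1 differed by less than the spread within either group. Without untreated replicate 1 the change was 0.21 and without IL4 replicate 3 it was 0.19, and neither passed; its adjusted p ran from 0.0065 to 0.097 over the alternatives. HYOU1, an ER chaperone of the large HSP70 kind and a nucleotide exchange factor for BiP, was at 645, 786 and 823 CPM and at 870, 850 and 990 CPM, a log2 change of 0.27 (SE 0.09, adjusted p = 0.035). It no longer passed with GC offsets (0.17) or without untreated replicate 1 (0.19), IL4 replicate 1 (0.29) or IL4 replicate 3 (0.20), its adjusted p running up to 0.36.

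SYVN1, the ubiquitin ligase of ER-associated degradation, differed mainly in a single library. Its level was 198, 194 and 212 CPM in untreated cells and 301, 217 and 217 CPM with IL4, and IL4 replicate 1 alone stood high. The log2 change of 0.28 (SE 0.09, adjusted p = 0.036) became 0.11 without that library and did not pass. It did not pass without untreated replicate 1 (0.29) or 2 (0.28) or with GC offsets (0.15) either, with adjusted p from 0.0074 to 0.19 over all alternatives. XBP1 was the member that fell. Its mRNA was at 289, 270 and 276 CPM without IL4 and at 270, 242 and 231 CPM with it, a log2 change of -0.17 (SE 0.06, adjusted p = 0.043), and untreated replicate 2 and IL4 replicate 1 had nearly the same level. The call was lost in 10 of 16 alternatives, including RLE scaling (-0.16) and the removal of untreated replicate 1 (-0.12), 2 (-0.17) or 3 (-0.15) or of IL4 replicate 2 (-0.13) or 3 (-0.13), but it passed without IL4 replicate 1 (-0.24), with adjusted p from 8e-04 to 0.27.

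The sensors did not pass. ERN1 was at 58.8, 59.5 and 59.0 CPM without IL4 and at 53.5, 53.1 and 52.4 CPM with it, so every IL4 library was below every untreated one. The log2 change was -0.16 (SE 0.08, adjusted p = 0.15), and it passed as lower only with GC offsets, with and without the replicate block. ATF6 was at 126, 151 and 158 CPM and at 120, 142 and 161 CPM, a log2 change of -0.03 (SE 0.10, adjusted p = 0.84). Among the remaining chaperones PDIA4 came closest, at 1040 CPM (SD 94.5, n = 3) against 1170 (SD 79.3, n = 3), a log2 change of 0.18 with an adjusted p of 0.058. The J-domain co-chaperones DNAJB9, DNAJB11 and DNAJC3, the cofactor SDF2L1, HSP90B1, the disulfide isomerases PDIA3 and PDIA6, CALR, CANX, and the degradation genes SEL1L and EDEM1 did not pass either, with log2 changes from -0.08 (CANX) to 0.20 (SDF2L1). PDIA3 counts were not whole in any library, so some of its reads were shared with other genes. DNAJB9 was at 199, 216 and 235 CPM without IL4 and at 167, 271 and 299 CPM with it, IL4 replicate 1 being below and its mates above all untreated libraries.

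**Figure D3:**
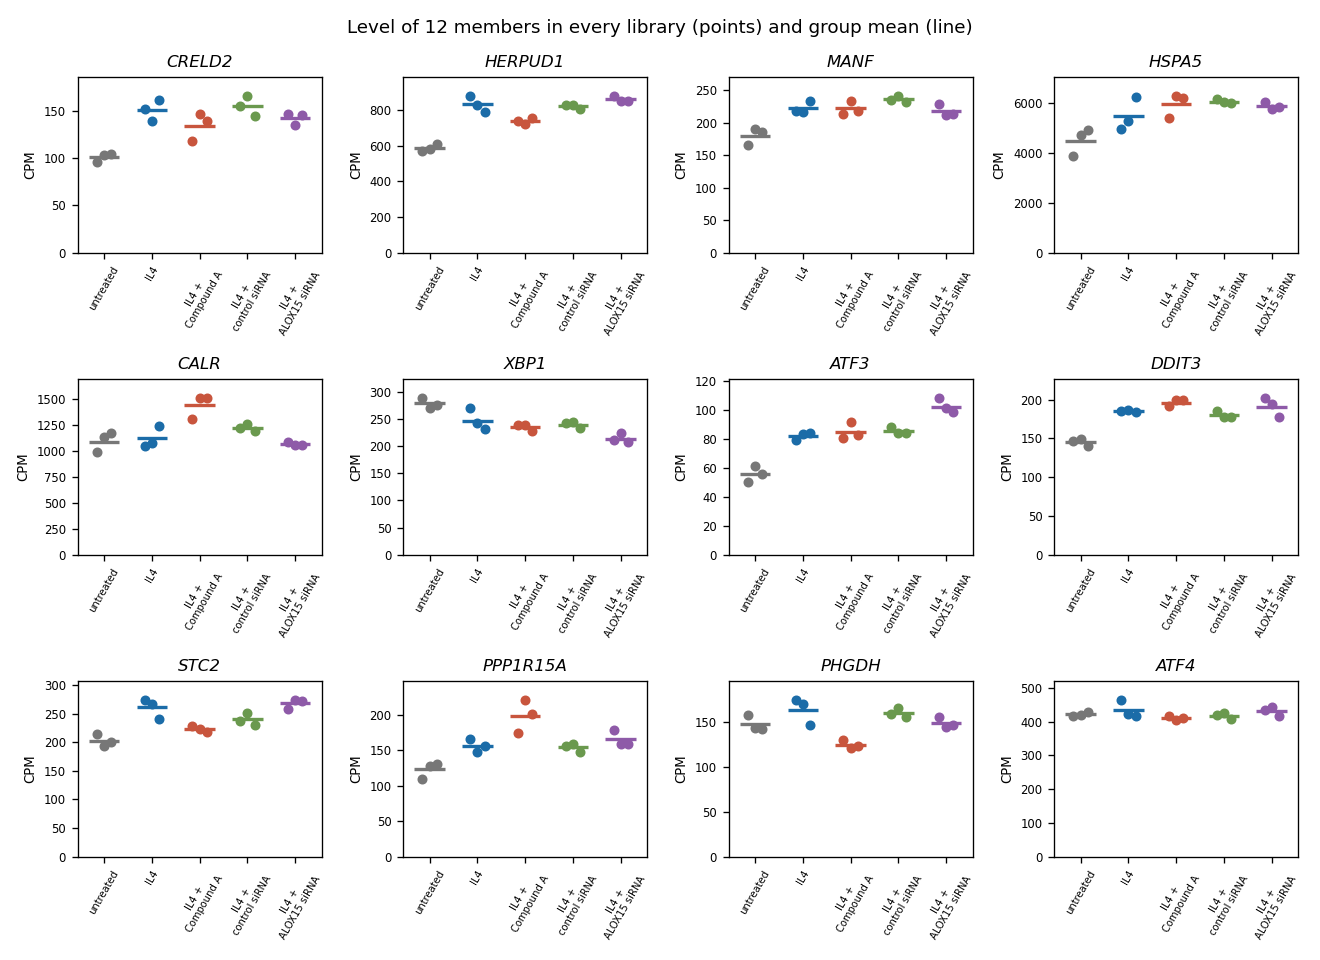
CPM (vertical axes from 0) of 12 members in each of the 15 libraries (points) with group means (lines), by group. CRELD2, HERPUD1, ATF3 and DDIT3 are higher in all IL4-treated groups than in untreated cells, CALR is highest and PHGDH lowest with Compound A, and ATF4 lies between 405 and 464 CPM throughout.

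In the ATF4 arm, 6 of 17 members were higher with IL4 and 0 were lower, against the same 11.2% and 11.6% of all genes. They were the transcription factors ATF3 and DDIT3, the feedback and stress genes CHAC1, PPP1R15A and STC2, and the transporter subunit SLC7A5. None of the 5 biosynthetic enzymes passed, and the median log2 change over the arm was 0.04 against -0.022 over all genes. Without untreated replicates 1, 2 and 3 that median was 0.16, 0.06 and 0.08, and without IL4 replicates 1, 2 and 3 it was 0.05, 0.09 and 0.11. With GC offsets the arm split into 4 higher and 2 lower, since PPP1R15A and SLC7A5 no longer passed while DDIT4 and TRIB3 passed as lower. Over all genes 12.1% were then higher and 15.9% lower.

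ATF3, a stress-induced repressor and activator of the ATF family (chromosome 1, 212565334 to 212620777), was at 50.1, 61.3 and 55.9 CPM in untreated cells and at 78.7, 83.4 and 84.2 CPM with IL4. The groups were well apart, with a log2 change of 0.56 (SE 0.08, adjusted p = 1.6e-05). DDIT3, which encodes the factor CHOP (chromosome 12, 57516588 to 57521737), was at 147, 149 and 140 CPM and then at 185, 187 and 184 CPM. Its log2 change of 0.35 (SE 0.06, adjusted p = 0.00015) came with a spread among the IL4 libraries of 1.60 CPM (SD, n = 3). STC2, a secreted glycoprotein with effects on calcium and phosphate, rose from 215, 194 and 201 CPM to 274, 267 and 241 CPM, a log2 change of 0.36 (SE 0.06, adjusted p = 0.00017). ATF3, DDIT3 and STC2 passed in all 16 alternatives.

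PPP1R15A, the GADD34 subunit that directs a phosphatase to eIF2-alpha and so closes the feedback loop, was at 110, 128 and 130 CPM without IL4 and at 166, 147 and 156 CPM with it. Its groups did not overlap and its log2 change was 0.35 (SE 0.08, adjusted p = 0.0045); with GC offsets the change was 0.22 and did not pass, the adjusted p over the alternatives running from 0.0011 to 0.14. CHAC1 was at 23.2, 20.8 and 19.3 CPM and at 35.7, 25.4 and 24.7 CPM, so that IL4 replicate 1 was far above its mates. Its log2 change of 0.43 (SE 0.12, adjusted p = 0.014) became 0.23 without that library and 0.40 without untreated replicate 3, and passed in neither (adjusted p from 0.0041 to 0.12 over the alternatives). SLC7A5 was at 2100 to 2300 CPM in untreated cells and at 2810, 2330 and 2280 CPM with IL4, and the groups overlapped. Its log2 change was 0.18 (SE 0.06, adjusted p = 0.039), became 0.08 without IL4 replicate 1, 0.18 without untreated replicate 2, 0.19 without untreated replicate 3 and 0.02 with GC offsets, and passed in none of these (adjusted p from 0.0085 to 0.67 over the alternatives); its counts, too, were not whole in any library.

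ATF4 itself barely moved at the mRNA level. It was at 416, 420 and 429 CPM without IL4 and at 464, 422 and 416 CPM with it, a log2 change of 0.04 (SE 0.05, adjusted p = 0.62). Its partner CEBPG had a log2 change of -0.18 (adjusted p = 0.18). DDIT4, an inhibitor of mTORC1 signalling, was at 398, 321 and 291 CPM and at 323, 307 and 261 CPM (log2 change -0.18, adjusted p = 0.17). The pseudokinase gene TRIB3 and SESN2 had log2 changes of 0.00 and 0.03. Among the enzymes, PHGDH, the first step of serine synthesis, had 0.15 and SHMT2, the mitochondrial serine hydroxymethyltransferase, 0.13, while PSAT1, ASNS and MTHFD2 had -0.03, -0.05 and -0.15. SLC3A2 had -0.02. For these 11 genes the adjusted p lay between 0.11 and 0.97, so a small change cannot be told from the spread of the libraries.

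**Figure D4:**
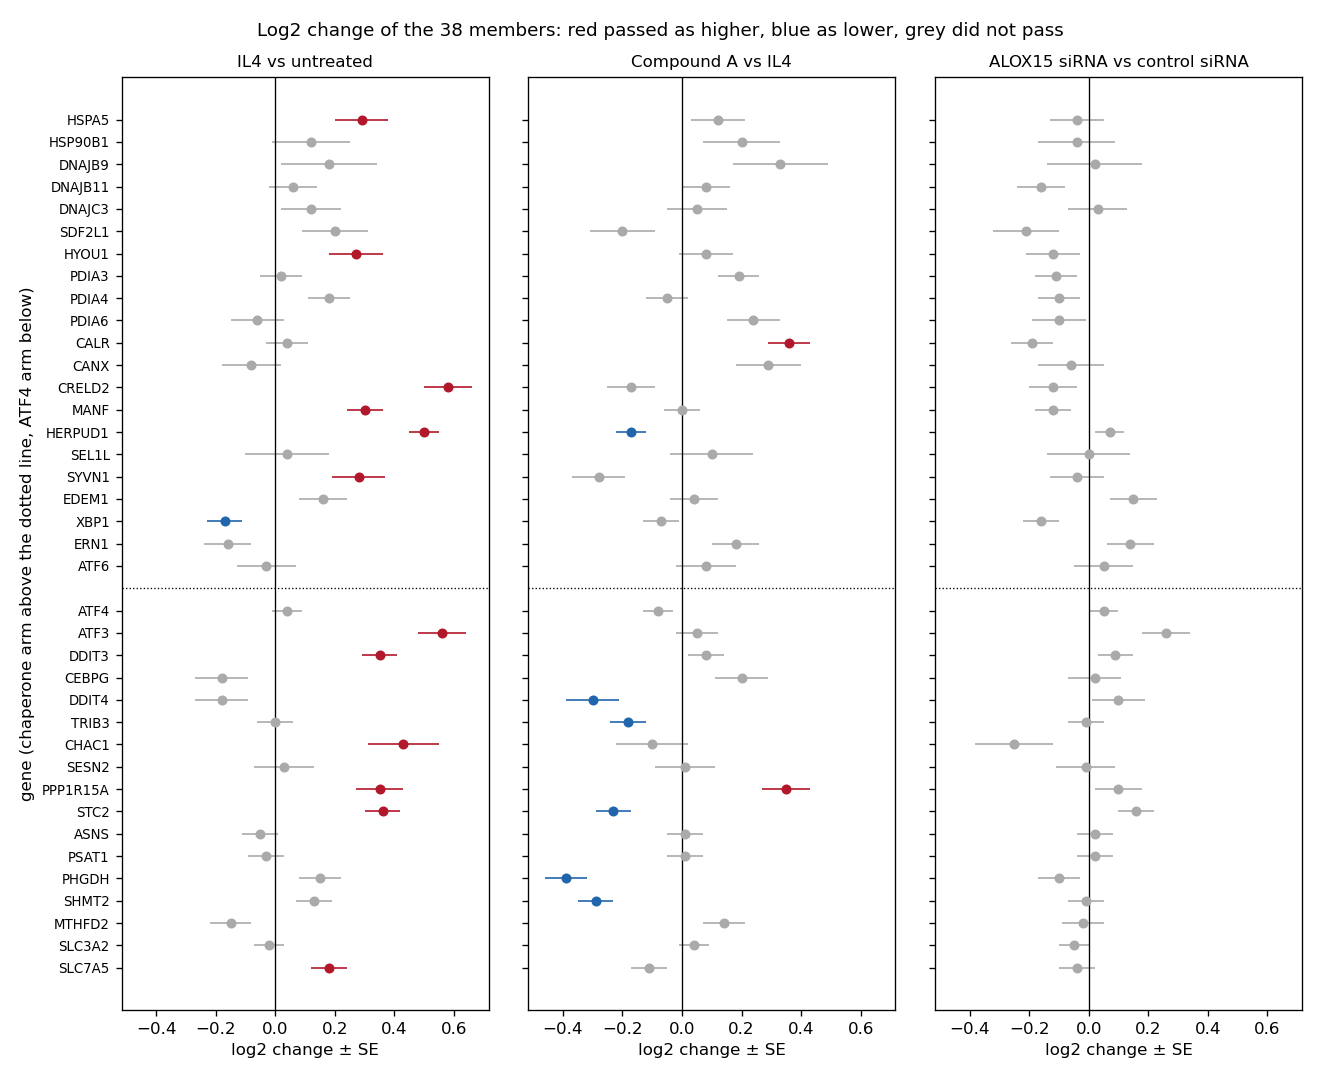
Log2 change with its SE (horizontal axis) for each of the 38 members in 3 comparisons, chaperone arm above the dotted line, with red for members that passed as higher, blue for lower and grey for those that did not pass. IL4 has 12 red points and 1 blue, Compound A 2 red and 6 blue, and the ALOX15 siRNA none of either.

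Genes of the same pathways outside the 38 were read against the same 11.2% and 11.6% of all genes under IL4. Of 49 other unfolded protein response genes, 5 were higher, a share near that of all genes, and 1 was lower. DERL3, a derlin of ER-associated degradation expressed in secretory cells, rose from 1.23 to 3.72 CPM on average (log2 change 1.55, SE 0.26, adjusted p = 0.00016), WFS1 by 0.47 and EDEM2 by 0.29, and the collagen-secretion factor CREB3L1 fell from 6.85 to 2.85 CPM (log2 change -1.26, SE 0.23, adjusted p = 0.00048). Of 42 other ATF4 targets that were tested, 2 were higher and 7 lower. The falls with the largest sizes were in DDIT4L (-1.02), the glutamine transporter SLC38A2 (-0.60), the stress cytokine GDF15 (-0.44) and GPT2 (-0.40). Of 15 cytosolic and mitochondrial heat shock genes, 3 were higher (HSPB1 by 0.65, DNAJB1 by 0.34, HSPA8 by 0.33) and 1 lower (HSPA4, -0.20).

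The other IL4-treated groups can be set against the same untreated libraries, which all these comparisons share. For both siRNA groups and Compound A against untreated cells, the alternative settings were not examined. Untreated replicate 1, the lowest of its group for HSPA5 (3860 CPM) and HYOU1 (645 CPM), is part of each of them. With control siRNA, 6 chaperone-arm members were higher and 1 lower and 4 ATF4-arm members higher and 1 lower, where 9.93% and 9.36% of all genes passed. With ALOX15 siRNA the numbers were 7 and 1, then 4 and 0, with 12.5% and 12.6% of all genes. With Compound A they were 8 and 1, then 3 and 4, with 12.7% and 13.5%. CRELD2 had log2 changes of 0.62 with control siRNA, 0.50 with ALOX15 siRNA and 0.41 with Compound A, HERPUD1 of 0.48, 0.55 and 0.33, MANF of 0.39, 0.27 and 0.30, and HSPA5 of 0.43, 0.39 and 0.41, and all of these passed. XBP1 passed as lower in each group, at -0.21, -0.38 and -0.24. ATF3 stood at 0.61, 0.88 and 0.61 and DDIT3 at 0.31, 0.39 and 0.43, all passing, whereas SYVN1 and SLC7A5 passed in none of the 3 and CHAC1, at 0.27, 0.02 and 0.33, did not either. DNAJB9 (0.51) and PDIA3 (0.21) passed with Compound A, CALR too with Compound A (0.40), PDIA4 with both siRNAs (0.31 and 0.21) and EDEM1 with ALOX15 siRNA (0.31). HYOU1 (0.42, 0.29 and 0.35) and PPP1R15A (0.33, 0.44 and 0.70) passed in each group, and STC2 with both siRNAs (0.24 and 0.40). DDIT4 passed as lower with control siRNA (-0.31) and Compound A (-0.48), and TRIB3 (-0.18), PHGDH (-0.25) and SHMT2 (-0.16) with Compound A.

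By library, CRELD2 was at 155, 166 and 145 CPM with control siRNA, at 147, 135 and 146 CPM with ALOX15 siRNA and at 118, 147 and 139 CPM with Compound A. HERPUD1 was at 830, 830 and 803 CPM with control siRNA and at 877, 850 and 849 CPM with ALOX15 siRNA. Both genes were thus above all untreated libraries in each group. MANF was at 235, 241 and 232 CPM with control siRNA, at 228, 211 and 214 CPM with ALOX15 siRNA and at 214, 234 and 218 CPM with Compound A. HYOU1 was at 996, 1040 and 971 CPM, at 933, 919 and 910 CPM and at 828, 1040 and 1000 CPM in the same order. Compound A replicate 1 was the lowest of these 9 libraries for HYOU1 and nearest to the untreated range. DNAJB9 was at 279, 242 and 304 CPM, at 265, 278 and 296 CPM and at 304, 313 and 307 CPM. DDIT3 was at 185, 178 and 177 CPM with control siRNA and at 202, 194 and 177 CPM with ALOX15 siRNA. PPP1R15A was at 156, 159 and 148 CPM with control siRNA and at 179, 159 and 159 CPM with ALOX15 siRNA, all above the untreated libraries. DDIT4 was at 280, 287 and 251 CPM and at 293, 294 and 289 CPM, and PHGDH at 159, 166 and 156 CPM and at 156, 145 and 147 CPM, in the 2 siRNA groups. CHAC1 was at 27.3, 26.2 and 26.4 CPM with Compound A.

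With Compound A added to IL4, the chaperone CALR was higher and the degradation gene HERPUD1 lower. In the ATF4 arm PPP1R15A was higher, and STC2, DDIT4, TRIB3 and 2 of the 5 enzymes, PHGDH and SHMT2, were lower. Against IL4 alone, 1 of 21 chaperone-arm members was higher and 1 lower, and 1 of 17 ATF4-arm members higher and 5 lower. Over all genes 6.35% were higher and 8.07% lower. Neither count of the chaperone arm was above the share of all genes. The medians were 0.08 and 0.01, against 0.002 over all genes, and neither kept its value across libraries. The chaperone-arm median was 0 without IL4 replicate 1, 0.17 without IL4 replicate 3, and 0.13, 0.03 and 0.05 without Compound A replicates 1, 2 and 3. The ATF4-arm median was -0.07 without IL4 replicate 3 and from -0.02 to 0 without any other library of the 2 groups. Because the IL4 group holds the library that stood apart, each call was also read against control siRNA, a comparison in which 1.86% of all genes were higher and 3.42% lower. There 1 chaperone-arm member was higher and 0 lower, and 1 ATF4-arm member higher and 2 lower. The medians were then -0.03 and -0.02, of opposite sign to those against IL4. The 2 comparisons share the Compound A libraries. With RLE or upper-quartile scaling the chaperone arm split 1 higher and 2 lower against IL4, SYVN1 being added, and with GC offsets 2 higher and 1 lower, ERN1 being added. Over all genes, 6.01% were higher and 8.25% lower with RLE, and 5.26% and 9.39% with upper-quartile scaling. With GC offsets 8.83% of all genes were higher and 8.57% lower. Epithelial markers summed to 8590 to 9380 CPM with Compound A and 9430 to 10200 CPM with control siRNA. Markers of other cell types summed to 153 to 155 and 136 to 158 CPM. Against IL4, 4 of 6 epithelial markers were lower and 0 higher. Of the 5 other-cell markers tested, 4 were lower and 1 higher. Against control siRNA, 1 of the 6 was lower and 0 higher, and 1 of the 5 was lower and 1 higher. The part of these markers in the result was not tested.

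CALR, the lectin chaperone calreticulin that folds glycoproteins and buffers calcium (chromosome 19, 12938578 to 12944489), was higher with Compound A. It was at 1050, 1080 and 1240 CPM with IL4 and at 1310, 1510 and 1510 CPM with Compound A. Every Compound A library lay above every library of the other 4 groups, of which the highest was 1260 CPM. The log2 change was 0.36 against IL4 (SE 0.07, adjusted p = 0.0022) and 0.24 against control siRNA (SE 0.07, adjusted p = 0.049), and it passed in all 18 alternatives. CANX, its membrane-bound relative, had 0.29 (adjusted p = 0.079), PDIA3, the isomerase that works with both, 0.19 (0.091) and PDIA6 0.24 (0.081), and none of them passed. Without IL4 replicate 3 the arm had 7 calls, since PDIA3, PDIA6, CANX, DNAJB9 and SYVN1 then passed too. In that fit 11.6% of all genes were higher and 11.8% lower. It kept IL4 replicate 1, the lowest of its group for PDIA3 (705 CPM), PDIA6 (758), CANX (1840) and DNAJB9 (167) and the highest for SYVN1 (301). Against control siRNA the changes were 0.08 for PDIA3, 0.11 for PDIA6, 0.15 for CANX, 0.16 for DNAJB9 and -0.19 for SYVN1, and none passed.

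HERPUD1 fell with Compound A, from 878, 828 and 791 CPM to 738, 722 and 754 CPM, with no overlap. Its level thus stood between those of untreated and IL4-treated cells, and the log2 change was -0.17 (SE 0.05, adjusted p = 0.02). With control siRNA as the reference it was -0.15 and did not pass, nor did it without IL4 replicate 1 (-0.13) or Compound A replicate 2 (-0.16); the adjusted p over the alternatives ran from 0.00076 to 0.14. SYVN1 had the lowest change of the arm, -0.28, with an adjusted p of 0.053. CRELD2 (-0.17), MANF (0.00) and HSPA5 (0.12) did not pass, and HSPA5 was at 5400, 6290 and 6190 CPM with Compound A. XBP1 was at 229 to 240 CPM and ATF6 at 141 to 159 CPM with Compound A, with log2 changes of -0.07 and 0.08. ERN1 was at 55.3, 67.6 and 56.8 CPM, above all 3 IL4 libraries, but its change of 0.18 had an adjusted p of 0.12. The remaining 9 genes of the arm, among them HSP90B1, HYOU1, PDIA4, SEL1L and EDEM1, had log2 changes from -0.20 (SDF2L1) to 0.33 (DNAJB9) and did not pass.

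PHGDH, the entry enzyme of serine synthesis (chromosome 1, 119648411 to 119744226), had the largest fall in the ATF4 arm. It was at 175, 170 and 147 CPM with IL4 and at 130, 121 and 124 CPM with Compound A. The Compound A libraries were below all 12 others, of which the lowest was an untreated library at 143 CPM. The log2 change was -0.39 against IL4 (SE 0.07, adjusted p = 0.00087) and -0.36 against control siRNA (SE 0.07, adjusted p = 0.004), and it passed in all 18 alternatives. SHMT2, which turns serine into glycine in mitochondria (chromosome 12, 57229327 to 57234935), was at 220, 201 and 199 CPM and then at 167, 171 and 169 CPM. It was again below all 12 other libraries, the lowest of which was at 185 CPM, with log2 changes of -0.29 against IL4 (SE 0.06, adjusted p = 0.0021) and -0.31 against control siRNA (adjusted p = 0.0028). SHMT2 failed only in a fit of the compared groups alone, with an adjusted p of 0.054 against 5.4e-05 to 0.012 elsewhere.

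The neighbouring enzymes did not share these falls. PSAT1, the step after PHGDH, was at 661, 793 and 776 CPM with IL4 and at 760, 731 and 751 CPM with Compound A (log2 change 0.01), MTHFD2, which follows SHMT2 in the mitochondrial folate pathway, had 0.14 and asparagine synthetase ASNS 0.01, and none passed. All 5 genes are known ATF4 targets, and the 3 that did not pass had Compound A levels within or near the range of untreated cells.

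PPP1R15A was higher with Compound A than with IL4 alone. Its 166, 147 and 156 CPM with IL4 compared with 174, 221 and 201 CPM, so the groups did not overlap and Compound A replicate 1 was nearest to IL4. The log2 change was 0.35 against IL4 (SE 0.08, adjusted p = 0.0088) and 0.36 against control siRNA (SE 0.08, adjusted p = 0.014). Without Compound A replicate 2, its highest library, the change against IL4 was 0.26 and did not pass (adjusted p up to 0.092 over the alternatives). From untreated cells to IL4 with Compound A, the change of PPP1R15A was 0.70 (SE 0.08, adjusted p = 2.1e-06), the largest rise of any member in that group.

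STC2, DDIT4 and TRIB3 were lower with Compound A than with IL4 but did not pass against control siRNA. STC2 was at 228, 223 and 218 CPM with Compound A, against 241 to 274 CPM with IL4 and 230 to 251 CPM with control siRNA. Its log2 change was -0.23 against IL4 (SE 0.06, adjusted p = 0.017) and -0.10 against control siRNA (adjusted p = 0.35), and it did not pass without Compound A replicate 2 (-0.23) or 3 (-0.21). DDIT4 was at 254, 236 and 233 CPM, below all IL4 libraries, with changes of -0.30 (SE 0.09, adjusted p = 0.042) and -0.18 (adjusted p = 0.31). It was lost in 10 of 18 alternatives, including the removal of IL4 replicate 1 (-0.23) or 2 (-0.28) or of Compound A replicate 1 (-0.34), 2 (-0.29) or 3 (-0.28). TRIB3 was at 432, 468 and 452 CPM, with changes of -0.18 (SE 0.06, adjusted p = 0.05 after rounding) and -0.14 (adjusted p = 0.2), and with GC offsets its change was 0.00. It did not pass without IL4 replicate 1 (-0.10) or Compound A replicate 1 (-0.15), 2 (-0.21) or 3 (-0.19).

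ATF4 had 416, 405 and 411 CPM with Compound A and a log2 change of -0.08 (SE 0.05, adjusted p = 0.31). ATF3 (0.05), DDIT3 (0.08), CEBPG (0.20), CHAC1 (-0.10), SESN2 (0.01), SLC3A2 (0.04) and SLC7A5 (-0.11) did not pass. DDIT3 was at 192, 199 and 199 CPM, so all 3 Compound A libraries lay above the IL4 ones, and ATF3 was at 80.1, 91.2 and 82.8 CPM, overlapping them.

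**Figure D5:**
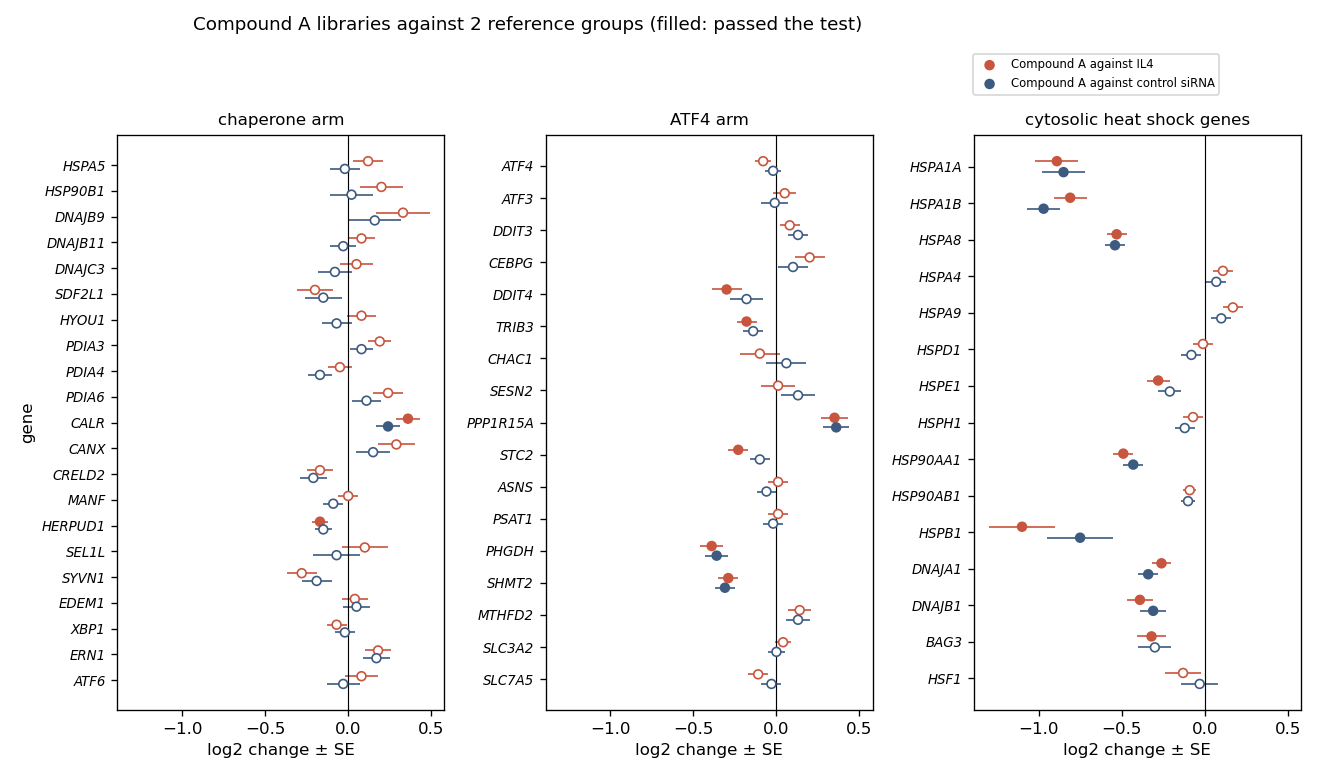
Log2 change with SE of the Compound A libraries against IL4 (red) and against control siRNA (blue) for the chaperone arm, the ATF4 arm and 15 heat shock genes; filled points passed the test. CALR, PPP1R15A, PHGDH and SHMT2 are filled for both references, and among the heat shock genes 9 are filled against IL4 and 7 against control siRNA, all of them lower.

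Most of the heat shock genes, whose proteins are chaperones outside the ER, were lower with Compound A. Of 15, 9 were lower and 0 higher against IL4, where 8.07% of all genes were lower, with a median log2 change of -0.28. Another 2 of the 15 had changes above 0 that did not pass. Against control siRNA 7 were lower and 0 higher, where 3.42% of all genes were lower. HSPB1, a small heat shock protein, went from 113 to 52.4 CPM (log2 change -1.10, SE 0.20, adjusted p = 0.0034), and the constitutive HSP70 gene HSPA8 from 706 to 488 CPM (-0.53, SE 0.06, adjusted p = 3.7e-05). HSPA1A (-0.89) and HSPA1B (-0.81) are nearly identical and shared reads in all 15 libraries, so their split is uncertain. The 9 calls became 6 without Compound A replicate 3 and 5 in a fit of the 2 groups alone. The share of all genes lower fell as well, from 8.07% to 4.64% and 2.14% in those fits.

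Other genes near the 2 arms passed in both directions with Compound A, where 6.35% of all genes were higher and 8.07% lower. Of 49 other unfolded protein response genes, 5 were higher, among them NUCB2 (0.44), FKBP14 (0.36) and MBTPS2 (0.28), and 1 was lower (DERL3, -1.01), and 0 passed against control siRNA, where 6 had an unadjusted p under 0.05. Of 42 other ATF4 targets, 3 were higher and 5 lower. GDF15 went from 117 to 191 CPM (log2 change 0.71, SE 0.13, adjusted p = 0.002) and also rose against control siRNA (0.72, adjusted p = 0.0036), SLC38A2 rose by 0.47, and ATF5 (-0.54) and GPT2 (-0.37) fell.

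The ALOX15 siRNA moved no member past the test. Against control siRNA, 0 of 21 chaperone-arm and 0 of 17 ATF4-arm members passed in edgeR's test, where 0.313% of all genes were higher and 0.383% lower. In each arm 2 members had an unadjusted p under 0.05, and DESeq2 called 0 in each. The medians were -0.06 and 0.02, against 0 over all genes. ATF3 had the largest rise, from 88.1, 83.7 and 83.8 CPM with control siRNA to 108, 101 and 98.4 CPM. The groups did not overlap, and the log2 change was 0.26 (SE 0.08, adjusted p = 0.14); it passed with GC offsets, with the replicate block added to them, and in a fit of these 2 groups alone. CHAC1 had the largest fall, from 25.5, 26.0 and 25.3 CPM to 21.0, 19.8 and 23.7 CPM (log2 change -0.25, SE 0.13, adjusted p = 0.61).

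In the chaperone arm, ALOX15 siRNA libraries lay wholly below control siRNA libraries for 9 of 21 genes and wholly above for 3, where 9.18% and 9.47% of all genes did so. None of these passed. CALR was at 1220, 1260 and 1190 CPM with control siRNA and at 1090, 1060 and 1060 CPM with ALOX15 siRNA (log2 change -0.19, SE 0.07, adjusted p = 0.33). XBP1 was at 243, 244 and 233 CPM and at 211, 224 and 208 CPM (-0.16, SE 0.06, adjusted p = 0.34). Of its 16 alternatives, XBP1 passed as lower only with the replicate block and GC offsets together (adjusted p = 0.034). HSPA5, at 6150, 6030 and 6000 CPM and at 6030, 5760 and 5850 CPM, had a log2 change of -0.04 (SE 0.09). ATF6 was at 140 to 162 CPM and at 156 to 160 CPM, and ERN1 at 51.6 to 55.0 CPM and at 55.7 to 61.1 CPM, a change of 0.14 (SE 0.08, adjusted p = 0.64). ATF4 was at 408 to 424 CPM and at 417 to 444 CPM. STC2 was at 230 to 251 CPM and at 258 to 274 CPM, higher in all 3 ALOX15 siRNA libraries (0.16, SE 0.06, adjusted p = 0.35). PHGDH (-0.10), SHMT2 (-0.01), PPP1R15A (0.10), DDIT4 (0.10) and DDIT3 (0.09), several of which passed with Compound A, did not pass here. The SEs ran from 0.05 to 0.16 on the log2 scale. Of the heat shock genes HSPA8 was higher (0.28, SE 0.06, adjusted p = 0.043). That call was lost with upper-quartile scaling and without control siRNA replicate 1 or 3 or ALOX15 siRNA replicate 2 or 3.

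Control siRNA against IL4 alone compared 2 groups that differ by the non-targeting siRNA. No gene of the 12795 passed in edgeR's test (0% higher and 0% lower), 628 had an unadjusted p under 0.05, and DESeq2 called 2. No member of either arm had an unadjusted p under 0.05. The median log2 change was 0.11 in the chaperone arm and -0.03 in the ATF4 arm, against 0.005 over all genes. Without IL4 replicates 1, 2 and 3 the chaperone-arm median was 0.04, 0.08 and 0.19, and the ATF4-arm median 0.01, -0.05 and -0.05.

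ALOX15 mRNA itself averaged 0.136 CPM in untreated cells, 5.27 CPM with IL4 and 2.21 CPM with Compound A. Its log2 change with Compound A was -1.23 against IL4 (SE 0.25, adjusted p = 0.0033 in edgeR's test). Against control siRNA it was -0.68 (SE 0.27) and did not pass. The Compound A and ALOX15 siRNA effects, each against its own reference, were tested against each other in one contrast. Of 38 members, 1 was more positive with Compound A and 3 more negative; in the chaperone arm these were CALR and HERPUD1 and in the ATF4 arm STC2 and SHMT2. Over all genes 1.94% and 3.2% passed. CALR differed by 0.55 (SE 0.10, adjusted p = 0.002) and STC2 by -0.39 (SE 0.09, adjusted p = 0.0099), and both passed in all 22 alternatives. HERPUD1 differed by -0.24 (SE 0.07, adjusted p = 0.044) and SHMT2 by -0.28 (SE 0.08, adjusted p = 0.043). HERPUD1 was lost in 12 and SHMT2 in 11 of the 22 alternatives, among them each control siRNA and ALOX15 siRNA library left out, with adjusted p up to 0.13 and 0.12. PHGDH (-0.29, adjusted p = 0.086), DDIT4 (-0.40, 0.098), PDIA3 (0.30, 0.1) and PPP1R15A (0.24, 0.26) did not pass, so a difference between the 2 treatments was not shown for them. Of the other lists, 7 of 15 heat shock genes were more negative with Compound A, and GDF15 (0.97, SE 0.18, adjusted p = 0.0049) and SLC38A2 (0.70, adjusted p = 0.042) were more positive.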

How the data were processed

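The values deposited by the authors are expected counts (RSEM's estimates for each gene and library). Per the submitters' processing notes, the authors used Bowtie2 2.1.0 and RSEM 1.2.15 on hg38; annotation, strand and read filters are not given in the sources used here. Counts were rounded, filtered with filterByExpr (12795 genes kept), scaled by TMM and fitted over all 15 libraries with edgeR 4.0.16 (robust quasi-likelihood, R 4.3.3), and p-values were adjusted over all tested genes at 0.05. CPM use TMM-scaled library sizes; SDs are over 3 libraries. The script was tested on simulated counts. Lengths, GC content and gene coordinates came from GENCODE v29 (GRCh38). The main fit did not pair libraries by replicate number. Alternatives were RLE and upper-quartile scaling, no or a stricter filter, unrounded counts, DESeq2 1.42.0, fits of the compared groups, GC offsets, a replicate block, control siRNA as reference and left-out libraries.

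Members and lists were chosen with earlier results of these data known. Every member was accounted for; all that passed were named, and the 8 largest changes per arm, HSPA5, XBP1, ERN1, ATF6, ATF4 and DDIT3 were given by library. Up to 4 genes per comparison came from each other list, those with the largest changes that passed.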

Additional observations from a re-analysis of the deposited data

How the results depend on the processing

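Members called with IL4 in the chaperone arm numbered 7, 3 when only the compared groups were fitted, and 4 to 8 with a library left out (4 without untreated replicate 1 or IL4 replicate 3). Over all genes, 11.2% higher and 11.6% lower with IL4 became 7.12% and 4.62% in the fit of the compared groups. Those shares were 11.7% and 9.46% without untreated replicate 1, and 12.4% and 13.3% without IL4 replicate 3. With Compound A the chaperone arm had 2 calls, 6 with a replicate block, 5 with the replicate block and GC offsets, 4 with DESeq2, 1 in a fit of the 2 groups or against control siRNA, 4 against control siRNA without IL4 replicate 1 in the fit, and 1 to 7 with a library left out (1 without IL4 replicate 1 or Compound A replicate 2). The ATF4 arm had 6 calls, 1 in a fit of the 2 groups, 3 against control siRNA and 2 to 8 with a library left out (2 without Compound A replicate 2, 3 without replicate 3). The share of all genes called with Compound A moved too, from 6.35% higher and 8.07% lower to 1.04% and 2.14% in the fit of the 2 groups, 2.27% and 3.68% without Compound A replicate 2, and 11.6% and 11.8% without IL4 replicate 3. It was 10.3% and 9.45% with the replicate block and GC offsets, and 6.18% and 8.05% with DESeq2. Against control siRNA without IL4 replicate 1 in the fit it was 5.72% and 6.93%. For ALOX15 siRNA the 0 calls became 1 in each arm in a fit of the 2 groups and with the replicate block and GC offsets, and 1 in the ATF4 arm with GC offsets. Over all genes, 0.313% higher and 0.383% lower became 1.39% and 1.24% in the fit of the 2 groups, 1.44% and 1.4% with the block and GC offsets, and 1.27% and 1.2% with GC offsets. The difference between the 2 treatments had 4 calls, 2 without a filter, 9 with the replicate block, 10 with the replicate block and GC offsets, and 2 to 9 with a library left out, while the share of all genes went from 1.94% and 3.2% to 6.1% and 6.01% with the replicate block and GC offsets. Of the members followed through the alternatives, none that passed took the opposite sign at 2 decimals (TRIB3 with Compound A reached 0.00 with GC offsets), but some that did not pass did: with IL4, ATF6 (-0.03) ran from -0.14 to 0.07 and ATF4 (0.04) from -0.06 to 0.09, and with Compound A, HSPA5 (0.12) ran from -0.02 to 0.22, ATF6 (0.08) from -0.03 to 0.19 and ATF4 (-0.08) from -0.11 to 0.02. With ALOX15 siRNA, ATF6 (0.05) ran from -0.01 to 0.09. Libraries with the same replicate number correlated weakly (median 0.0225, lowest -0.128, 8 of 30 pairs over 0.1). Those with different numbers correlated less (median -0.01, lowest -0.237, 7 of 60 pairs over 0.1). Of 15 libraries, 9 correlated best with their own number, so whether the numbers pair libraries was not settled. With the replicate block, 9.25% of all genes were higher and 10.4% lower with Compound A against IL4. In a window of 100 bases the motif shares were 30% and 12.5%. The causes of these shifts were not tested. With 3 libraries per group, few members with log2 changes under 0.2 in size passed.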
